A study of Rattus norvegicus with 4 samples.

Results

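The nuclear genes for the subunits of oxidative phosphorylation were compared between cultured rat Schwann cells (SCs) infected with LentiAS and with LentiGFP. The members were chosen by symbol alone and comprised every row of the count table named for an Nduf a, b, c, s or v subunit, for Sdha to Sdhd, for Cyc1 or for a gene beginning with Uqcr, Cox4 to Cox8 or Atp5, leaving out rows with a copy suffix. This gave 83 of the 17949 gene rows, of which 36 belonged to complex I, 4 to complex II, 9 to complex III, 17 to complex IV and 17 to complex V. The cells were primary SCs from sciatic nerve, grown with forskolin and heregulin-β1, and RNA was taken 48 hours after infection. The 2 LentiAS samples carried a lentivirus expressing the Egr2 antisense RNA (Egr2-AS), a transcript of the promoter of the myelination factor Egr2. The 2 LentiGFP samples carried the control virus, whose plasmid pLVX-AcGFP1-N1 encodes a green reporter, while Egr2-AS was cloned into pLVX-DsRed-Express2-N1, so that the reporter and the antisense RNA cannot be told apart as differences between the groups.

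Oxidative phosphorylation takes place in the inner mitochondrial membrane. Complexes I and II pass electrons from NADH and succinate to ubiquinone, complex III passes them on to cytochrome c and complex IV to oxygen, and the proton gradient built by complexes I, III and IV drives ATP synthesis by complex V. Most subunits are encoded in the nucleus and imported, and only a small number come from mitochondrial DNA. Complexes I, III, IV and V need subunits from both genomes, whereas complex II is encoded in the nucleus alone. SCs, the glia that ensheath and myelinate peripheral axons, depend on mitochondrial function to keep myelin and axons intact.

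The 4 libraries held 74024323 to 96185890 counts. The 11 Schwann cell marker rows summed to 10036 to 11587 CPM (counts scaled to a library total of 1000000, with factors from the trimmed mean of M values), although Gap43 was under 1 CPM in all 4 samples. Macrophage markers summed to 3.52 to 4.55 CPM and erythroid markers to 1.84 to 2.56 CPM, yet the 7 tested globin rows had a median log2 difference of LentiAS 1 minus LentiAS 2 of -8.82, which set LentiAS 2 apart. The 7 fibroblast marker rows summed to 999 and 858 CPM in the LentiGFP samples, 2475 CPM in LentiAS 1 and 413 CPM in LentiAS 2. Most of that sum was Col1a1, whereas Lum, Dcn, Dpt and Thy1 were under 1 CPM in all samples. The 5 neuron marker rows summed to 192 and 201 CPM in LentiGFP and 149 and 154 CPM in LentiAS. Of these, Snap25, Rbfox3 and Syt1 were under 1 CPM in all samples. At the thresholds given below, 1 neuron marker and 1 Schwann cell marker differed between the groups, beside 1.98% of all genes. Egr2 itself measured 49.2 and 42.1 CPM in LentiGFP and 61.2 and 54.0 CPM in LentiAS (log2 difference 0.33, SE 0.11, adjusted p = 0.152 in edgeR). It was higher in both LentiAS samples, as were 27.7% of all genes, without passing the threshold. The paper reports less EGR2 protein, a less accessible Egr2 locus and lower Egr2 promoter activity with Egr2-AS, none of which is an RNA level. The ectopic Egr2-AS was not analysed here. In such bulk samples, fewer cells of a type and less RNA per cell cannot be told apart.

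No subunit gene differed between the groups at the thresholds used. A gene was tested if 2 or more samples had 10 counts or more, which held for 76 members. Of these, 0 were higher and 0 were lower in LentiAS at an adjusted p under 0.05 with a change of at least 1.3-fold (edgeR's quasi-likelihood test with Benjamini-Hochberg adjustment), beside 246 of 12446 genes tested (1.98%). The smallest adjusted p of a member was 0.128 in edgeR, for Cox5a. At an unadjusted p under 0.05 in edgeR, 4 members (5.26%) passed, beside 21.8% of all genes. DESeq2, run as an alternative, gave an adjusted p under 0.05 to Cox5a among higher genes (6.4% of all genes) and to Cox7c among lower genes (4.2%), and neither reached 1.3-fold.

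The estimates were also narrow. The 95% interval of the fold change lay within 1.3-fold in either direction for 65 members (85.5%), beside 44.4% of all genes. For 62 members the fitted change itself was within 1.1-fold, beside 46.5% of all genes. The 11 members with a wider interval were Ndufa1, Ndufa5, Ndufb3, Ndufb4, Ndufb7, Ndufs6, Cox4i1, Cox5a, Cox6b1, Cox7a2 and Atp5f1d, for which changes beyond 1.3-fold lay inside the interval. The median log2 fold change was -0.053 over the members and 0.0071 over all genes, and 57 members were fitted lower and 19 higher. With library totals in place of the scaling factors, 46 were fitted lower and 30 higher, and the medians became -0.022 and 0.039. Without LentiAS 2 the median over the members was 0.026, and those of complexes I, III, IV and V also turned positive, at 0.042, 0.0066, 0.040 and 0.059.

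**Figure D1:**
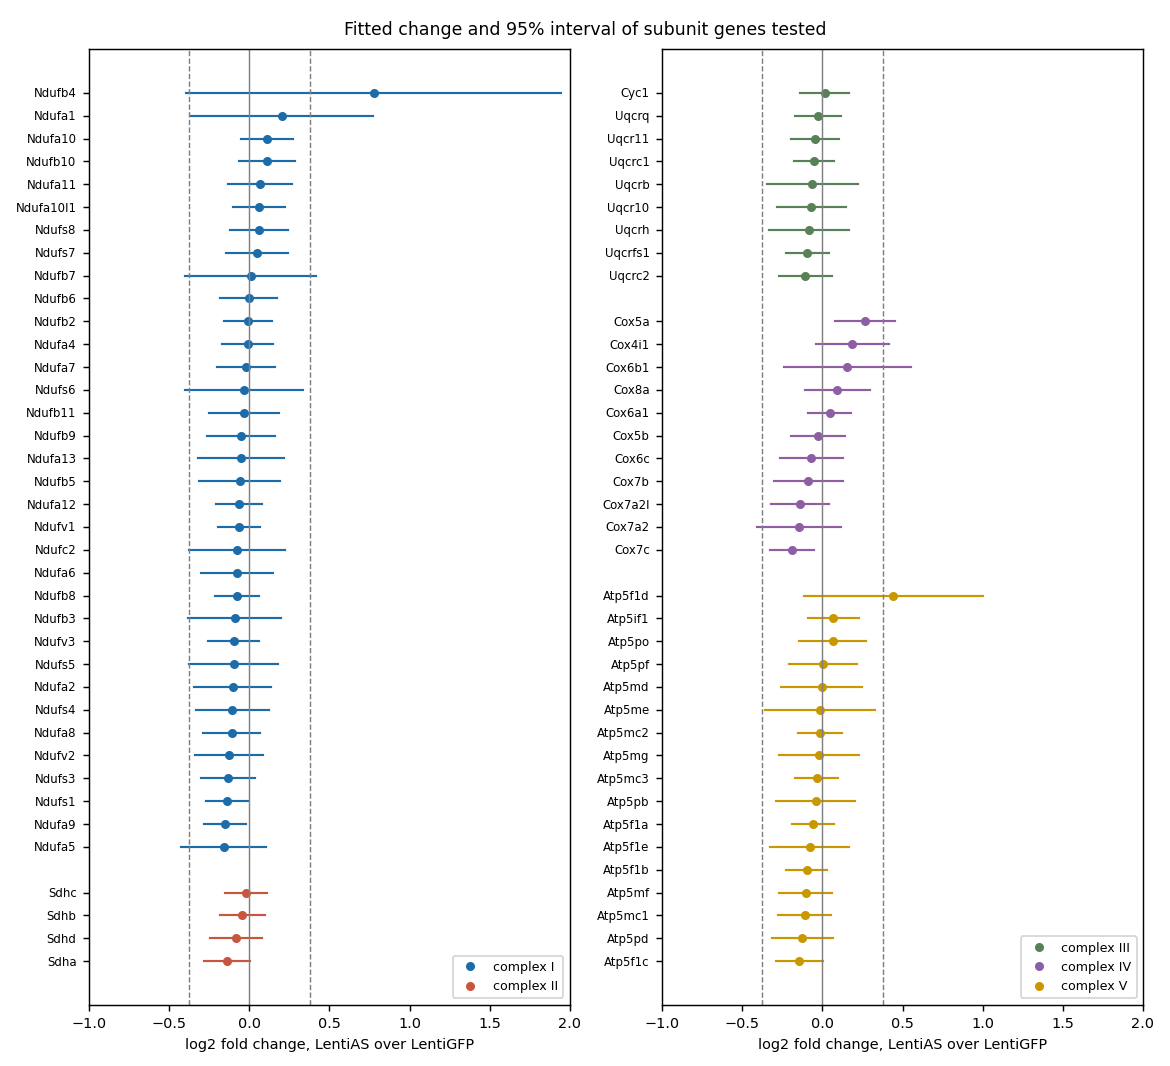
Fitted log2 fold change of LentiAS over LentiGFP (horizontal axis) for 75 of the subunit genes tested, in order of the change within each complex. Points are edgeR estimates, bars are 95% intervals and dashed lines mark 1.3-fold. The intervals of 64 of them stay between the dashed lines, and that of Ndufb4 is the widest.

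The 4 members with an unadjusted p under 0.05 in edgeR were Cox5a, Cox7c, Ndufa9 and Ndufs1. Cox5a, a subunit of cytochrome c oxidase on the matrix side, measured 47.6 and 44.7 CPM in LentiGFP and 57.5 and 53.5 CPM in LentiAS. Both LentiAS samples were above both controls, with a log2 difference of 0.27 (SE 0.076). Cox7c, a small membrane subunit of the same enzyme, measured 245 and 255 CPM in LentiGFP and 224 and 213 CPM in LentiAS. Both LentiAS samples were lower, by 0.19 on the log2 scale (SE 0.056, adjusted p = 0.136 in edgeR). Thus 2 subunits of a single complex stood on opposite sides of the controls.

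The promoters of these 4 genes are shown because they were the members with the smallest unadjusted p-values. The sequences run from 250 bases before to 50 bases after the RefSeq start on the GRCr8 build, and capitals mark matches to the motifs of NRF1, ETS/GABP or YY1 searched below.
Cox5a, chr8:66818034-66818333, plus strand: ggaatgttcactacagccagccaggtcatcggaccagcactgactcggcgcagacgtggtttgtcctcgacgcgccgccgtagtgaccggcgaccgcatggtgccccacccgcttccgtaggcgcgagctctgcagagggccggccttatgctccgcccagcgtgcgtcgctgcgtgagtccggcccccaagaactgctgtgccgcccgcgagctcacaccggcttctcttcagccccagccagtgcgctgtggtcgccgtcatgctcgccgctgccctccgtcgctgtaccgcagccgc
Cox7c, chr2:18579121-18579420, minus strand: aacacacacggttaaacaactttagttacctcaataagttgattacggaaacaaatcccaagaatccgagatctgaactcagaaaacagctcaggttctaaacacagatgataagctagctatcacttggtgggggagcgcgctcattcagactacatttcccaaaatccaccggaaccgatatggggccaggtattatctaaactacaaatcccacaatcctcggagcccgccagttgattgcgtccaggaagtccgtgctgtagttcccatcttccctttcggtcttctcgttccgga
Ndufa9, chr4:161374121-161374420, minus strand: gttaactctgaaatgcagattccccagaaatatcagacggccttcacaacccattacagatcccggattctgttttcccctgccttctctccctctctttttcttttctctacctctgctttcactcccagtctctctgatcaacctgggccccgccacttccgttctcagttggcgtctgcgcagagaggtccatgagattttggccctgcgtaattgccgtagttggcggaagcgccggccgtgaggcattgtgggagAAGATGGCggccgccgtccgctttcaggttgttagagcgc
Ndufs1, chr9:72073556-72073855, minus strand: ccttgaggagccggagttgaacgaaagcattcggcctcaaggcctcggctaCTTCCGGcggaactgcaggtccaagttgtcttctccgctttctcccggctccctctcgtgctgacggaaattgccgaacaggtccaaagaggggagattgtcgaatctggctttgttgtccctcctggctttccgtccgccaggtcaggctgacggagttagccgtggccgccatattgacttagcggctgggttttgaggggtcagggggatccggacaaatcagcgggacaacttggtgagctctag
The Ndufa9 promoter held 1 YY1 match, which began at base 11 after the start. The Ndufs1 promoter held 1 ETS/GABP match on the opposite strand, 199 bases before the start. These letters were not in the windows of Cox5a and Cox7c.

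NRF1, the GABP factor of the ETS family and YY1 are known activators of many respiratory chain genes, and YY1 also links neuregulin signalling to Egr2 in SCs. RefSeq promoters were matched to 71 of the 83 members, of which 66 were tested members. On both strands, GCGCANGCG (NRF1) was found in 27.3% of these 66, CCGGAAG (ETS/GABP) in 31.8% and AAGATGGC (YY1) in 21.2%. The shares among all 33469 promoters were 5.80%, 8.75% and 3.17%, and among the 9937 promoters matched to genes tested here 12.5%, 16.8% and 5.25%. At least 1 of the 3 motifs was found in 63.6% of the tested members, 29.7% of the genes tested and 15.7% of all promoters. AAGGTCA, the half-site of the oestrogen-related receptors (ERR), was in 16.7%, 3.02% and 4.61%. The subunit promoters thus held these 4 motifs at higher shares than both backgrounds, whereas GGGCGG (SP/KLF) was in 40.9% of them and 61.4% of the genes tested. TGACGTCA (CRE) was in 6.06% of the tested members, 3.13% of the genes tested and 1.83% of all promoters, a higher share that rests on 4 members. The E-box CACGTG was in 9.09%, 8.91% and 6.42%, the AP-1 motif TGANTCA in 6.06%, 5.07% and 7.33%, and the core promoter motif TATAAA in 9.09%, 7.09% and 14.2%. No motif's letters contained those of another. Among the 22 matched promoters of members lower in both LentiAS samples, 15 held at least 1 of the first 3 motifs (68.2%), and 2 of the 4 of members higher in both did.

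**Figure D2:**
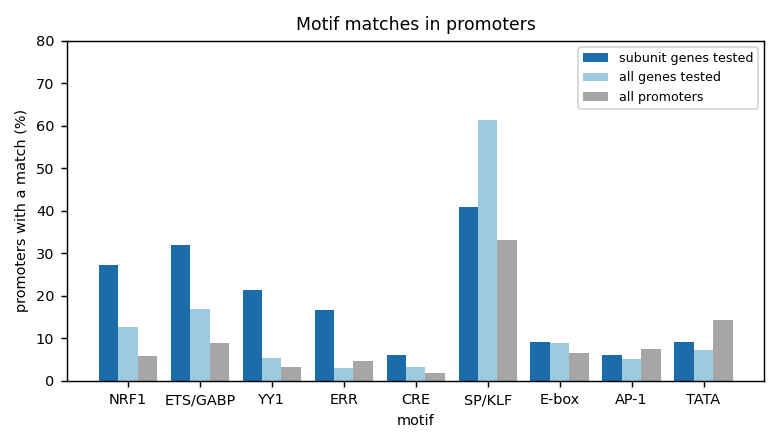
Share of promoters of 300 bases (vertical axis, percent) holding each motif (horizontal axis). Dark bars are the 66 tested subunit genes, light bars the 9937 promoters of all genes tested and grey bars all 33469 promoters. NRF1, ETS/GABP, YY1, ERR and CRE matches stand higher in the subunit genes than in both backgrounds.

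The genes of those regulators did not pass the threshold either. Nrf1 measured 16.8 and 17.6 CPM in LentiGFP and 18.9 and 19.7 CPM in LentiAS, a log2 difference of 0.17 (SE 0.076, adjusted p = 0.264 in edgeR). Gabpa had a log2 difference of -0.032 (SE 0.066) and Yy1 of -0.023 (SE 0.11). Ppargc1a, a coactivator of mitochondrial biogenesis, measured 0.971 to 1.44 CPM. Tfam, which packages and transcribes mitochondrial DNA, measured 67.3 and 67.4 CPM in LentiGFP and 62.4 and 59.6 CPM in LentiAS (adjusted p = 0.278 in edgeR).

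In complex I, 35 of 36 members were tested, with a median log2 fold change of -0.061. Both LentiAS samples were below both controls for 10 of them, beside 27.2% of all genes, and above for 3, beside 27.7%. The core subunits carry flavin and the iron-sulfur clusters. Ndufs1, which holds several of the clusters, measured 189 and 198 CPM in LentiGFP and 176 and 175 CPM in LentiAS, and was lower by 0.14 on the log2 scale (SE 0.053, adjusted p = 0.209 in edgeR). Ndufv1, the flavin-bearing subunit that takes electrons from NADH, measured 175 and 183 CPM against 171 and 170 CPM. Both genes lay close together in the LentiAS samples. Ndufs3, of the matrix arm, measured 73.5 and 74.7 CPM in LentiGFP and 65.3 and 69.7 CPM in LentiAS, and Ndufv2 measured 154 and 155 CPM against 154 and 130 CPM. Ndufs7 and Ndufs8, which carry clusters nearest to ubiquinone, were fitted higher by 0.047 and 0.057 on the log2 scale, with overlapping samples.

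The accessory subunits of complex I surround this core. Ndufa9, near the ubiquinone site, measured 136 and 141 CPM in LentiGFP and 125 and 124 CPM in LentiAS, a log2 fold change of -0.15 (SE 0.054, adjusted p = 0.182 in edgeR). Ndufa5, of the matrix arm, measured 71.3 and 79.2 CPM against 73.4 and 61.2 CPM, so that the groups overlapped. Ndufb4, of the far end of the membrane arm, measured 2.92 and 2.93 CPM in LentiGFP, 7.52 CPM in LentiAS 1 and 2.47 CPM in LentiAS 2. Its fitted log2 fold change of 0.78 (SE 0.478, adjusted p = 0.388 in edgeR) came from LentiAS 1 and was -0.24 without that sample. Ndufa1, which helps to build the membrane arm, had only 98 to 142 counts in its row, with a log2 fold change of 0.20 (SE 0.23). A second row for Ndufa1 with a copy suffix held 370 to 471 counts, so that its level here is uncertain. Ndufa10 measured 27.8 and 28.5 CPM against 31.3 and 29.5 CPM, and its near relative Ndufa10l1 65.6 and 68.7 CPM against 70.9 and 69.0 CPM. Both were higher in both LentiAS samples. How reads matching more than 1 gene were counted is not given, so each of these values is uncertain. Ndufb10 was the other member of complex I above the controls in both samples, at 61.7 and 60.8 CPM against 54.9 and 58.7 CPM.

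In complex II, the succinate dehydrogenase that also serves the citric acid cycle, all 4 genes were tested and fitted lower, with a median log2 fold change of -0.064, and 3 were fitted lower with library totals. Sdha, the flavoprotein that oxidises succinate, measured 358 and 369 CPM in LentiGFP and 318 and 342 CPM in LentiAS. The groups did not overlap, and the log2 fold change was -0.14 (SE 0.059, adjusted p = 0.240 in edgeR). Sdhb, the iron-sulfur subunit, measured 171 and 182 CPM against 174 and 168 CPM. Of the membrane anchors, Sdhc measured 182 and 184 CPM against 175 and 184 CPM, and Sdhd 114 and 116 CPM against 114 and 104 CPM. Only Sdha and Sdhd thus had both LentiAS samples below both controls in this complex, beside 27.2% of all genes.

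In complex III all 9 members were tested, 8 were fitted lower (7 with library totals) and the median log2 fold change was -0.063. Uqcrfs1, the Rieske iron-sulfur protein, measured 186 and 179 CPM in LentiGFP and 174 and 168 CPM in LentiAS. Uqcrc1 and Uqcrc2 are the large core proteins on the matrix side. Uqcrc1 measured 337 and 330 CPM against 321 and 321 CPM, and Uqcrc2 205 and 210 CPM against 203 and 182 CPM. Both LentiAS samples were below both controls for these 3 of the 9 members, beside 27.2% of all genes. Their log2 fold changes were -0.094, -0.054 and -0.11. Cyc1, cytochrome c1, measured 89.0 and 92.7 CPM against 89.9 and 93.5 CPM, which overlapped. Cycs, the cytochrome c that carries electrons on to complex IV and is no subunit, measured 34.9 and 35.6 CPM against 33.0 and 29.3 CPM (adjusted p = 0.258 in edgeR).

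Complex IV, with 11 of 17 members tested and a median log2 fold change of -0.028, had the largest median size of change of the complexes. It was 0.14, beside 0.074 over all members and 0.15 over all genes. Cox5a and Cox4i1 were above the controls in both LentiAS samples (27.7% of all genes), and Cox7c, Cox7a2 and Cox7a2l were below (27.2%). Cox4i1, the largest nuclear subunit and a site of regulation by nucleotides, measured 142 and 142 CPM in LentiGFP and 177 and 147 CPM in LentiAS. The higher of the LentiAS values was that of sample 1, and the log2 fold change was 0.19 (SE 0.093, adjusted p = 0.299 in edgeR), or 0.045 without that sample. Cox6b1, which faces the intermembrane space, measured 25.3 and 27.7 CPM against 34.5 and 24.4 CPM, with LentiAS 1 above and LentiAS 2 below the controls. Cox7a2 measured 10.7 and 10.8 CPM against 10.2 and 9.12 CPM. Cox7a2l, a factor that joins complexes into supercomplexes and is not a fixed subunit of the enzyme, measured 254 and 266 CPM against 250 and 222 CPM. Cox6a1 measured 259 and 272 CPM against 275 and 272 CPM, Cox7b 74.1 and 74.3 CPM against 75.0 and 64.7 CPM, and Cox8a 106 and 116 CPM against 125 and 111 CPM, all 3 with overlapping groups. Ndufa4, named for complex I but now placed in complex IV, measured 158 and 170 CPM against 169 and 157 CPM.

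The isoforms of muscle, testis or low oxygen were near 0. The 7 members not tested were Cox4i2, Cox6a2, Cox6b2, Cox8b, Cox8c and Ndufa4l2 together with the pseudogene Cox6c-ps1, none of which exceeded 16 counts in a sample. Cox4i2, the lung isoform, had 3 and 2 counts in LentiGFP and 0 and 6 in LentiAS. Cox6a2 and Cox8b, of heart and skeletal muscle, had 6 and 4 against 6 and 0 counts, and 6 and 6 against 4 and 4 counts. Cox6b2, of testis, had 2 and 2 counts against 16 and 1, and Cox8c 1 and 0 against 0 and 0. Ndufa4l2, a target of the hypoxia factor HIF1, had 0 and 3 counts against 5 and 6. No fold is given for these genes at such counts.

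**Figure D3:**
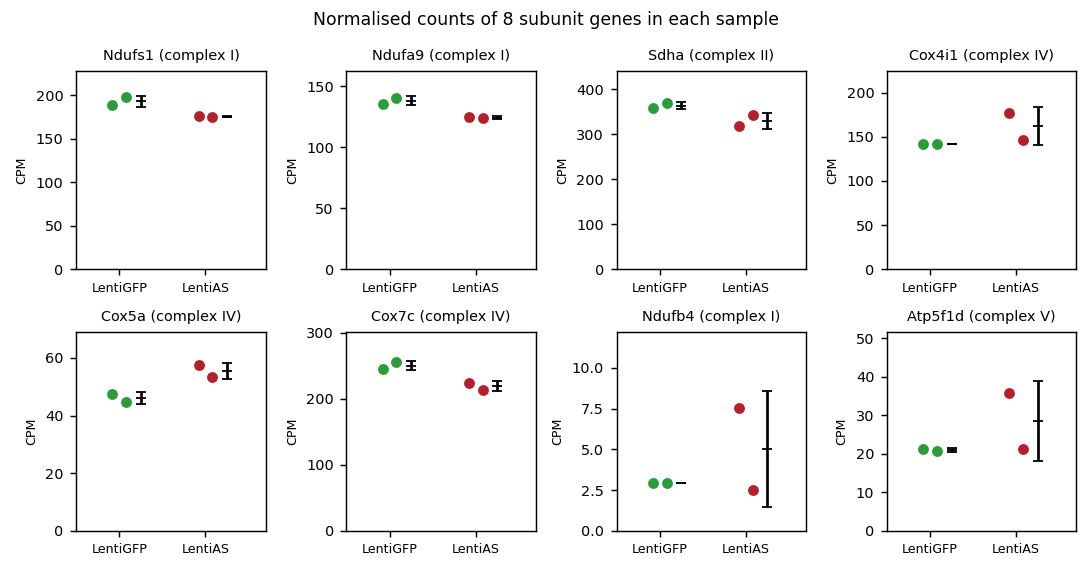
Normalised counts (vertical axis, CPM, each panel on its own scale from 0) of 8 subunit genes in each LentiGFP (green) and LentiAS (red) sample, with the mean and SD (n = 2) beside them. The samples separate for Ndufs1, Ndufa9, Sdha, Cox4i1, Cox5a and Cox7c, and 1 LentiAS sample stands above the others for Ndufb4 and Atp5f1d.

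In complex V all 17 members were tested, with a median log2 fold change of -0.037, 6 below both controls in both LentiAS samples (27.2% of all genes) and 0 above (27.7%). The catalytic head is built of the α and β subunits. Atp5f1b (β), which carries the catalytic sites, measured 1532 and 1578 CPM in LentiGFP and 1438 and 1466 CPM in LentiAS, a log2 fold change of -0.098 (SE 0.052, adjusted p = 0.327 in edgeR). Atp5f1a (α) measured 836 and 876 CPM against 829 and 815 CPM. Atp5f1c (γ), the rotating shaft, measured 269 and 272 CPM against 254 and 234 CPM, a log2 fold change of -0.15 (SE 0.060, adjusted p = 0.235 in edgeR). These 3 genes had no overlap between the groups. Atp5f1d (δ), at the foot of the shaft, measured 21.3 and 20.7 CPM in LentiGFP, 35.9 CPM in LentiAS 1 and 21.2 CPM in LentiAS 2. Its log2 fold change of 0.44 (SE 0.229, adjusted p = 0.315 in edgeR) became 0.012 without LentiAS 1.

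The c ring, which turns with the passage of protons, is encoded by Atp5mc1, Atp5mc2 and Atp5mc3, whose mature proteins are alike. Atp5mc1 measured 89.7 and 97.5 CPM in LentiGFP and 87.2 and 86.0 CPM in LentiAS. Atp5mc2 measured 243 and 259 CPM against 249 and 247 CPM, and Atp5mc3 133 and 133 CPM against 127 and 132 CPM. Both LentiAS samples were below both controls for Atp5mc1 and Atp5mc3, beside 27.2% of all genes, and the groups overlapped for Atp5mc2. In the peripheral stalk, which holds the head still, Atp5pd measured 200 and 210 CPM against 200 and 175 CPM, and the log2 fold changes of its 4 members ran from -0.13 to 0.064. Atp5if1, the inhibitor of ATP hydrolysis and not a structural subunit, measured 183 and 187 CPM against 204 and 185 CPM, which overlapped. A second row for the stalk gene Atp5pb held 3868 to 5276 counts beside 4725 to 6830 in its main row, and was left out by the rule on copy suffixes.

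Counted over all complexes, both LentiAS samples were below both LentiGFP samples for 24 members (31.6%), beside 27.2% of all genes, and above for 5 members (6.58%), beside 27.7%. The 24 included Ndufs1 and Ndufv1 of complex I, Sdha, Uqcrfs1, Atp5f1a and Atp5f1b. The 5 were Cox4i1, Cox5a, Ndufa10, Ndufa10l1 and Ndufb10. The share lower was near that of all genes, while the share higher was below it. With library totals the counts were 17 lower (22.4%, beside 21.9% of all genes) and 8 higher (10.5%, beside 32.3%). With 2 samples a group, an exact two-sided permutation test of a single value cannot give a p below 0.333.

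Most members differed in level between the LentiAS samples themselves. LentiAS 1 was above LentiAS 2 for 68 of the 76 members (89.5%), beside 50.7% of all genes, with a median log2 difference of 0.147 against 0.0030 over all genes. LentiGFP 2 was above LentiGFP 1 for 61 members (80.3%), beside 49.8% of all genes, with a smaller median log2 difference of 0.041. For 35 members LentiAS 1 was above and LentiAS 2 below the LentiGFP mean, for 29 both were below it, for 9 both were above and for 3 the order was reversed. By role of the subunit, the median difference between the LentiAS samples was 0.010 for the core subunits of complex I. Single core subunits ran from -0.14 (Ndufs7) to 0.24 (Ndufv2). The median was 0.163 for the 13 tested Ndufa, 0.226 for the 11 Ndufb and Ndufc and 0.163 for the 4 other Ndufs and Ndufv accessory subunits. Ndufb4, Atp5f1d, Ndufb7 and Cox6b1 had the widest gaps, of 1.60, 0.76, 0.53 and 0.50 on the log2 scale. Cytosolic ribosomal protein genes shared the pattern, with 67 of 73 above in LentiAS 1 and a median of 0.211, and so did 57 of 71 mitochondrial ribosomal protein genes, with a median of 0.107. The fibroblast marker sum moved the same way, at 2475 CPM in LentiAS 1 against 413 CPM in LentiAS 2. Most of it was Col1a1, at 2131 against 290 CPM, whereas Pdgfra of the same list measured 4.06 against 3.83 CPM. The Schwann cell marker Sox10 measured 163 against 61.2 CPM, and the sum of the Schwann cell markers 11587 against 10560 CPM. The globins moved the opposite way. The part of these genes in the difference was not tested.

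**Figure D4:**
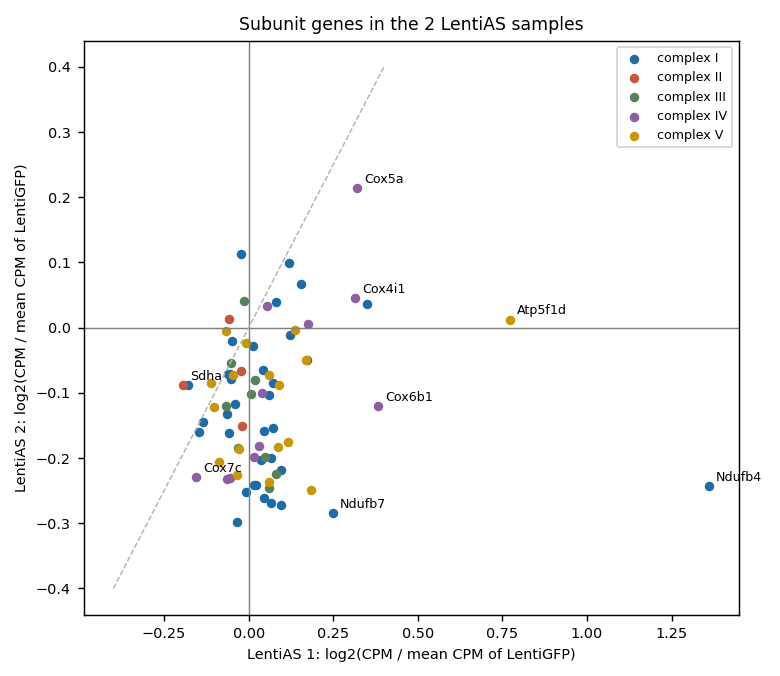
Level of each tested subunit gene in LentiAS 1 (horizontal axis) and LentiAS 2 (vertical axis), each as log2 of CPM over the LentiGFP mean, coloured by complex. Points below the dashed line of equal values, 68 of 76, are higher in LentiAS 1.

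Summed over the 83 members, transcripts of the subunits amounted to 11468 and 11827 CPM in LentiGFP, 11574 CPM in LentiAS 1 and 10810 CPM in LentiAS 2. LentiAS 1 was thus at 99.4% and LentiAS 2 at 92.8% of the LentiGFP mean, so that 1 of the LentiAS samples lay between the controls and the other below them. Complex I stood at 101% and 91.8% of the LentiGFP mean in LentiAS 1 and 2, complex III at 99.4% and 92.0% with both below the controls, complex IV at 103% and 93.4%, and complex V at 98.3% and 93.1%. Complex II, at 93.2% and 95.3%, also had both LentiAS samples below both controls, with sample 1 the lower. Of its 825 and 850 CPM in LentiGFP and 781 and 798 CPM in LentiAS, Sdha made up the largest share in each sample.

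**Figure D5:**
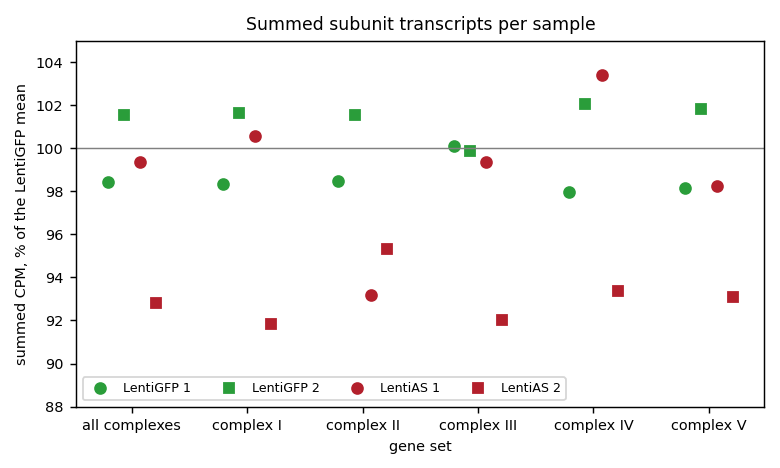
Summed CPM of the subunit genes of each complex in each sample, as a percentage of the LentiGFP mean (vertical axis, which does not start at 0). LentiAS 2 lies below both LentiGFP samples in every set shown, and LentiAS 1 does so in complexes II and III.

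Comparing each LentiAS sample alone with the controls changed the outcome. Without LentiAS 1, 24 members were lower at an adjusted p under 0.05 in edgeR (9.53% of all genes) and 1, Cox5a, was higher (10.6%), none of them by 1.3-fold. They included Uqcrh, Uqcr10, Ndufc2, Ndufs4, Cox7c and Atp5pd. Without LentiAS 2, 10 members were higher (15.7% of all genes), among them Cox5a, Cox4i1, Cox8a and Atp5po, and 2, Sdha and Ndufs3, were lower (9.52%). Of the 10, Atp5f1d, Cox6b1 and Ndufb4 also passed 1.3-fold. In these fits the lone LentiAS sample was assumed to vary as the control samples do. Cox5a was the member with an adjusted p under 0.05 on the same side in both.

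No gene of the lists that act with the complexes was called. Of 41 assembly factors tested, 0 were called, and the median log2 fold change was -0.073, with 19 lower (27.2% of all genes) and 2 higher (27.7%) in both LentiAS samples. The 23 electron carriers and their donors had a median of -0.095, the 30 genes of mitochondrial import and the inner membrane -0.055, the 27 of mitochondrial biogenesis and transcription -0.023 and the 19 of the TCA cycle 0.061, again with 0 called in each. The median size of change was 0.086 for the assembly factors and 0.091 for the import genes, but 0.13 for the electron carriers, 0.13 for the TCA cycle and 0.15 for the biogenesis genes, the last equal to the 0.15 of all genes. Mitochondrial ribosomal protein genes had a median of -0.056 and cytosolic ones -0.091, with 0 called. In the same fit 18 of 27 cell cycle genes were called higher, beside 163 of all 12446 genes tested. The median over the 27 was 0.43 on the log2 scale. This list was chosen with earlier results known, and the paper reports that upregulated genes in these cells were enriched for cell cycling. The count is therefore not an independent check of what the fit can detect.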

How the data were processed

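RNA-seq (50 bp paired-end) was done on 2 LentiGFP and 2 LentiAS samples. The authors deposited raw counts per gene, from featureCounts over RefSeq exons of rn6. The methods name hisat2 as the aligner and the labels' tool list names GSNAP, and which made these counts is not settled. Versions, strand and multi-mapping settings are not given in the sources used here. 1 row repeating the header was dropped. Samples were matched to columns by title.

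The rule picked members by symbol and not by their values, but the rule and the lists were chosen with earlier results of these data known. Every member could be named. Full values went to members called, to the 2 largest rises and falls in each complex with a mean count of at least 100, to catalytic or redox subunits and to isoform pairs. In the table Atp5a1 and Atp5b are Atp5f1a and Atp5f1b, and Atp5g1 to Atp5g3 are Atp5mc1 to Atp5mc3.

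Genes reaching 10 counts in 2 or more samples were fitted with edgeR 4.0.16 (R 4.3.3; TMM factors, glmQLFit, glmQLFTest), and p-values were adjusted by Benjamini-Hochberg over all 12446 genes. A call needed an adjusted p under 0.05 and a change of at least 1.3-fold. Standard errors were derived from the F statistic, and 95% intervals from the t distribution with the fit's degrees of freedom. Alternatives were DESeq2 1.42.0, limma 3.58.1, other scaling, other filters, a likelihood ratio test, a replicate block, leaving out each sample, and leaving out globin rows and Rpph1. The fit was tested on simulated data, in which most genes given a true change of 1.3-fold were not called. The labels name biological replicates but not separate cultures, so p-values measure the spread between these samples. Gene lengths of the build used were not at hand, so CPM were not corrected for length. Sums and shares over several genes are therefore sums and shares of counts. The values of 1 member are not reported here, although it is in the counts.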

Additional observations from a re-analysis of the deposited data

How the results depend on the processing

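The 0 members called lower held in all 14 alternatives, and the 0 called higher in all but the fit without LentiAS replicate 2, which gave 3. Leaving out 1 sample moved the median log2 fold change of all members between -0.12 (without LentiAS replicate 1) and 0.026 (without LentiAS replicate 2), that of complex I between -0.13 and 0.042, of complex II between -0.090 and -0.040, of complex III between -0.12 and 0.0066, of complex IV between -0.12 and 0.040, and of complex V between -0.089 and 0.059, so that the negative medians of the members and of complexes I, III, IV and V rest on LentiAS 2. The complex IV median was also positive without LentiGFP replicate 2 (0.017) and with library totals (0.0033), and the complex II median with library totals was -0.032. Members fitted lower numbered 57, against 46 with library totals and 32 without LentiAS replicate 2. Among the 33 tested genes given full values, 8 changed sign in some setting. Without 1 sample at a time, Atp5if1 ran from -0.0038 to 0.14, Atp5mc2 from -0.058 to 0.030, Cox6b1 from -0.12 to 0.38, Cox7b from -0.20 to 0.015, Cyc1 from -0.015 to 0.044, Ndufa4 from -0.066 to 0.042, Ndufb4 from -0.24 to 1.36 and Sdhb from -0.084 to 0.00034. With library totals Atp5mc2 was 0.015 and Ndufa4 0.021, and with upper-quartile factors Ndufa4 was 4.2e-05. The cause was not tested. The deviations of same-numbered samples from their group means had a correlation of -0.0073 over genes. With 2 samples a group, this cannot show whether same-numbered samples were handled together. With the replicate block 0 members and 17 genes were called, with a member median of -0.057. The number of genes called over the table was 627 with DESeq2, 521 with the likelihood ratio test, 845 without LentiAS replicate 1, 1515 without LentiAS replicate 2 and 1 on leaving out either of the LentiGFP samples, against 246. The 7 members with at most 16 counts in any sample were not tested, so no change can be given for them.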
